A study of Drosophila melanogaster with 23 samples.

Results

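The genes described here are 7 members of the Drosophila Jak-STAT pathway, chosen by name from the 17659 genes counted: the receptor dome, the kinase hop, the transcription factor Stat92E, the feedback inhibitor Socs36E, the receptor-like antagonist et, the phosphatase Ptp61F and the SUMO ligase Su(var)2-10. All 7 had enough reads to be tested in each of 3 experiments. The values are nascent RNA reads from Kc167, a cell line of female embryonic origin. In neuRNA-seq, cells are fed a tagged uridine (EU, here 0.2 mM over 1 h), and transcripts made in that time are biotinylated (0.25 mM biotin azide), pulled down on beads and sequenced, here in 50 bp single reads. All 23 libraries come from 1 line, so the results hold for that line.

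Experiment 1 compared 3 AGO2 KD libraries (an siRNA against an exon shared by both transcripts of AGO2, which encodes Argonaute2) and 3 LaminB KD libraries (dsRNA against the lamin gene Lam) with 3 mock libraries. Experiment 2 had 2 libraries in each of 4 groups: si5UTR (an siRNA that targets the 5′UTR of AGO2), si5UTR+AGO2 and si5UTR+V966M (the same siRNA given together with a tagged AGO2 cDNA, wild-type or catalytic mutant), and mock. Experiment 3 compared 3 Dcr-2 KD libraries (dsRNA against the RNAi endonuclease gene Dcr-2) with 3 mock libraries. Mock cells were nucleofected with neither dsRNA nor siRNA, and the labels call the libraries of a group biological replicates. In AGO2 KD, LaminB KD, si5UTR and Dcr-2 KD against mock, the presence of transfected RNA and the loss of the targeted gene therefore cannot be told apart. The groups given a cDNA differ from mock and from si5UTR also by the transfected construct. No group here received the siRNA with an empty construct.

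In this pathway, secreted Unpaired cytokines bind the receptor Domeless. The kinase Hopscotch, docked on the receptor, then phosphorylates Stat92E, which dimerises, enters the nucleus and binds palindromic DNA sites. Socs36E is a transcriptional target of Stat92E whose protein restrains the receptor complex, so its transcription is widely read as a gauge of pathway output. In fly blood cells and in cells related to them the pathway is known for roles in wounding, infection and proliferation.

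STAT dimers recognise TTCNNNGAA, and in flies also bind TTCNNNNGAA, with N for any base. Both were searched over the dm6 gene bodies and over the 1000 bases upstream of each gene start; the palindrome reads alike on both strands, and matches of the 2 spacings were counted separately and may overlap. The gene body of Socs36E (FBgn0041184), 13.7 kb on the minus strand of 2L:18138675-18152417, held 20 matches to TTCNNNGAA, of which 18 lay in introns. That is 1.46 matches per kb, against 0.313 per kb over the bodies of all 17464 genes with coordinates. Among 965 genes with bodies of 10 to 20 kb the median was 4 matches, and 1 gene (0.104%), Socs36E itself, held as many as 20. For TTCNNNNGAA, Socs36E held 15 matches, the median was again 4 and 3 genes (0.311%), Socs36E included, held as many. The 4 intronic matches nearest to the gene start, shown because Socs36E is the member whose nascent RNA changed in most comparisons, lay 426, 540, 660 and 693 bases into the gene. They read as follows on the gene's own strand, in dm6, with the palindrome in capitals.
Socs36E 2L:18151973-18152001 minus: gtaattggaaTTCCCTGAAccgctcgctg
Socs36E 2L:18151859-18151887 minus: aggcgcaataTTCCGCGAActggacgtaa
Socs36E 2L:18151739-18151767 minus: cgatacgaaaTTCCCAGAAacgcattttc
Socs36E 2L:18151706-18151734 minus: ttagaccgatTTCTGAGAAgtgacagaca

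The other members held fewer matches to TTCNNNGAA per kb. Stat92E, 17.0 kb long on 3R, held 9 matches to TTCNNNGAA (0.530 per kb), dome 5 (0.670 per kb), hop 2, et 1, Su(var)2-10 2 and Ptp61F 50 over its 132.8 kb (0.377 per kb). The receptor gene dome held 11 matches to the wider spacing, or 1.47 per kb, against 1.09 per kb in Socs36E and 0.326 per kb over all gene bodies. No member had TTCNNNGAA within 1000 bases upstream of its start, where 27.6% of all genes have it. The wider spacing occurred upstream in dome and in Su(var)2-10, and in 27.5% of all genes. The match upstream of dome is shown because dome is the receptor gene; it begins 103 bases before the start.
dome X:19683602-19683631 minus: gaattcgaatTTCGGCTGAAatgcgatgtt
A match says only that these letters are present, and binding of Stat92E was not measured here.

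**Figure D1:**
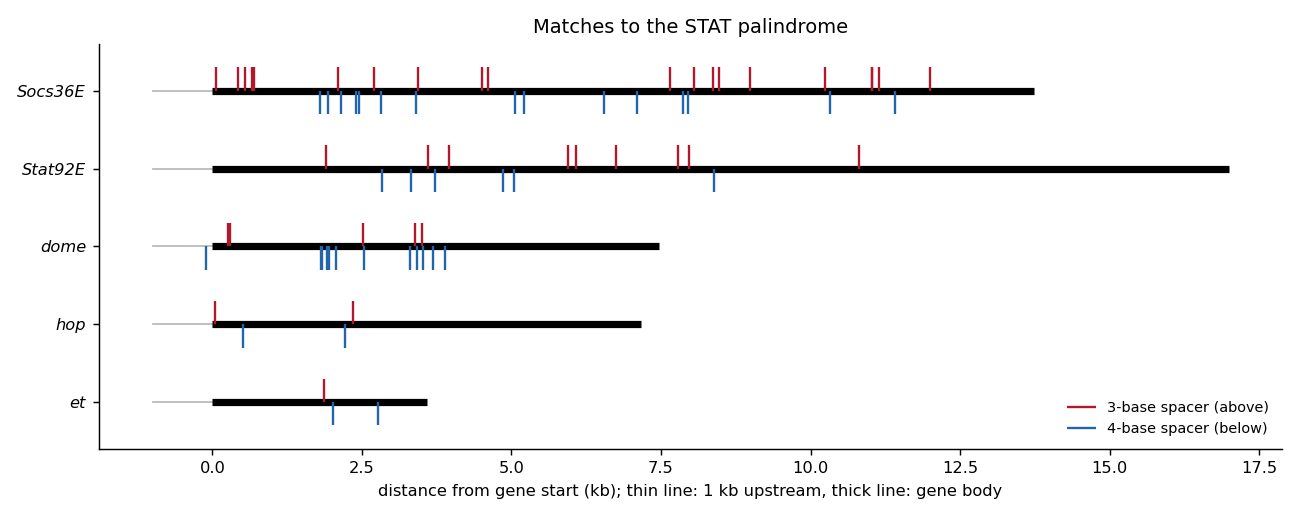
Matches to the STAT palindrome with a 3-base spacer (red, above) and a 4-base spacer (blue, below) against distance from the gene start in kb, for Socs36E, Stat92E, dome, hop and et, with the gene body as a thick line and 1 kb upstream as a thin one. Socs36E holds 20 and 15 matches along its body, and hop holds 2 and 2.

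Library totals ran from 5215481 to 15641835 reads. A gene's level is its CPM: its reads per 1000000 reads of library size, TMM-normalised within the experiment. The targeted genes fell: AGO2 changed by -0.47 on the log2 scale in AGO2 KD and -0.91 in si5UTR, Lam by -1.63 in LaminB KD and Dcr-2 by -0.53 in Dcr-2 KD (edgeR's quasi-likelihood test, adjusted p = 0.000312, 4.91e-05, 4.12e-09 and 0.0592). In LaminB KD, AGO2 (0.34) and Dcr-2 (0.43) rose. All these values are nascent reads and do not measure protein, whose depletion the study followed by Western blot. Of 9 haemocyte markers 8 were tested, and the level summed over the 9 spanned 6245 to 6597 CPM in AGO2 KD, 7677 to 7820 CPM in LaminB KD and 6560 to 7023 CPM across the corresponding mock libraries. In experiment 2 it spanned 6453 to 6578 CPM in si5UTR, 7221 to 7581 CPM in si5UTR+AGO2, 5869 to 6183 CPM in si5UTR+V966M and 6940 to 7480 CPM in mock, and in experiment 3 5480 to 5842 CPM in Dcr-2 KD and 5839 to 5910 CPM in mock. Among these markers Pxn (log2 fold change -0.76) and Hml (-0.33) fell in AGO2 KD and ush rose. In LaminB KD 4 rose and in si5UTR+V966M 3 fell, while NimC1 averaged under 1 CPM. Of all genes tested, 7.92% were called higher and 2.32% lower in AGO2 KD, and 16.7% higher in LaminB KD. In si5UTR+V966M against mock, 30 of 8727 were called lower. The 4 neuron markers, of which Syt1 averaged under 1 CPM, summed to 166 to 187 CPM for AGO2 KD, 279 to 287 CPM for LaminB KD and 131 to 137 CPM for mock. In experiment 2 the neuron sum was 189 to 199 CPM for si5UTR, 169 to 171 CPM for si5UTR+AGO2, 121 to 142 CPM for si5UTR+V966M and 149.8 to 150.6 CPM for mock, and in experiment 3 it was 213 to 263 CPM for Dcr-2 KD and 228 to 264 CPM for mock. Of the 4 muscle markers, Mlc2 and up averaged under 1 CPM. The 4 summed to 8.21 to 8.77 CPM for AGO2 KD, 5.83 to 8.73 CPM for LaminB KD and 4.22 to 5.70 CPM for mock. In experiment 2 the muscle sum was 7.22 to 9.76 CPM for si5UTR and 4.41 to 6.55 CPM for mock. For si5UTR+AGO2 it was 3.26 to 4.92 CPM and for si5UTR+V966M 5.94 to 7.02 CPM. In experiment 3 it was 12.0 to 13.9 CPM for Dcr-2 KD and 16.1 to 24.5 CPM for mock. The part of these shifts in the members' values was not tested, and fewer cells of a kind and less RNA per cell cannot be told apart in pooled cells.

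Among the members, the levels per kb of gene body in mock cells spanned a wide range. In experiment 1, Su(var)2-10 stood highest at 68.0 ± 2.16 CPM per kb (SD, n = 3), followed by Stat92E at 56.4 ± 2.21, hop at 38.1 ± 2.11, Socs36E at 36.1 ± 0.988, dome at 23.9 ± 0.671, et at 5.45 ± 0.869 and Ptp61F at 2.15 ± 0.0664 CPM per kb. Only hop and Socs36E overlapped as neighbours in that order. Among 11053 genes with a read in those mock libraries, these levels ranged from the 42.4th percentile for Ptp61F to the 96.1th for Su(var)2-10. In the other experiments et kept its rank but not its level, since it averaged 18.6 ± 0.852 CPM per kb in the mock libraries of experiment 2 (n = 2) and 13.4 ± 0.605 in those of experiment 3 (n = 3). Stat92E ranked above Su(var)2-10 in experiment 3. Exons make up 25.5% of the body of Socs36E and 4.57% of that of Ptp61F, so most of the counted length of these genes is intron. Ptp61F overlaps 4 genes on its own strand over 6.87% of its body, and reads there could have been lost to either, so its values are uncertain to that extent. Counting used strand. Over all libraries, the long noncoding RNA gene antisense to Socs36E gathered 57 reads, against 158452 for Socs36E. Zw, antisense to et where they overlap, gathered 3213, against 8505 for et, and rho, CG9166 and ru, antisense to Ptp61F, gathered 8219, 5010 and 1759, against 60895 for Ptp61F.

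Socs36E rose in both knockdowns of experiment 1, in the AGO2 depletion by the second siRNA, in the mutant-construct group and in Dcr-2 KD, and was not called against mock in the si5UTR+AGO2 group. In AGO2 KD its levels were 1082, 963 and 1029.5 CPM, against 485, 491 and 511 CPM in mock, from at least 4643 reads per library. The groups stood far apart: the lowest AGO2 KD library was above the highest mock library by more than the spread within either group. The log2 fold change was 1.05 with a standard error (SE) of 0.0566, and edgeR's quasi-likelihood test gave an adjusted p of 2.51e-08. By p-value Socs36E ranked number 1 of the 8142 genes tested, and by fold change number 416.

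In LaminB KD, Socs36E had 794, 728 and 747 CPM, against the same mock libraries at 485, 491 and 511 CPM. All 3 LaminB KD libraries lay above every mock library and below every AGO2 KD library. The log2 fold change against mock was 0.61 (SE 0.0564, adjusted p = 1.48e-06 by edgeR's quasi-likelihood test), and that of LaminB KD against AGO2 KD was -0.44 (SE 0.0561, adjusted p = 8.18e-05). The knockdowns share their mock libraries, so their differences from mock are not independent. With gene length and GC content corrected, the LaminB KD value was 0.43.

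In experiment 2, Socs36E had 792 and 868 CPM in si5UTR, 533 and 481 CPM in si5UTR+AGO2, 726 and 705 CPM in si5UTR+V966M, and 480.2 and 478 CPM in mock. The si5UTR libraries were the highest, the mutant-construct libraries lay between, and the wild-type construct libraries were next to mock. Against mock the log2 fold change was 0.79 in si5UTR (SE 0.0906, adjusted p = 1.86e-05 by edgeR's quasi-likelihood test, number 3 of 8727 genes by p-value) and 0.58 in si5UTR+V966M (SE 0.0903, adjusted p = 0.00204). In si5UTR+AGO2 it was 0.08, with a 95% interval of -0.11 to 0.27 on the log2 scale. Cells of all 3 groups had received the same siRNA.

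The constructs were also compared directly. Socs36E was lower in si5UTR+AGO2 than in si5UTR by a log2 value of -0.71 (SE 0.0906, adjusted p = 0.000268 by edgeR's quasi-likelihood test), the second-lowest p-value among 8727 genes. It was higher in si5UTR+V966M than in si5UTR+AGO2 by 0.50 (SE 0.0903, adjusted p = 0.0248), with no overlap of libraries. That call was lost when only these groups were fitted (adjusted p = 0.410). Between si5UTR+V966M and si5UTR the difference was -0.22 with an unadjusted 95% interval of -0.40 to -0.03 and an adjusted p of 0.518, which did not pass. As a measured background, AGO2 itself had 159 and 161 CPM in si5UTR, 480.2 and 427 CPM in si5UTR+AGO2, 379 and 432 CPM in si5UTR+V966M, and 282 and 321 CPM in mock; reads from the constructs count towards it.

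In Dcr-2 KD, Socs36E had 757, 797 and 833 CPM, against 482, 507 and 583 CPM in its mock libraries. Again no library of one group reached into the other. The log2 fold change was 0.60 (SE 0.0848, adjusted p = 0.00293 by edgeR's quasi-likelihood test), number 11 of 7733 genes by p-value. The rise in AGO2 KD exceeded that in Dcr-2 KD by a log2 value of 0.44 (SE 0.105, adjusted p = 0.0290, interaction contrast). The rise in LaminB KD differed from that in Dcr-2 KD by 0.00293, with a 95% interval of -0.21 to 0.21. Between the AGO2 KD and si5UTR effects the difference was 0.26, with an unadjusted interval of 0.06 to 0.46 and an adjusted p of 0.306.

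**Figure D2:**
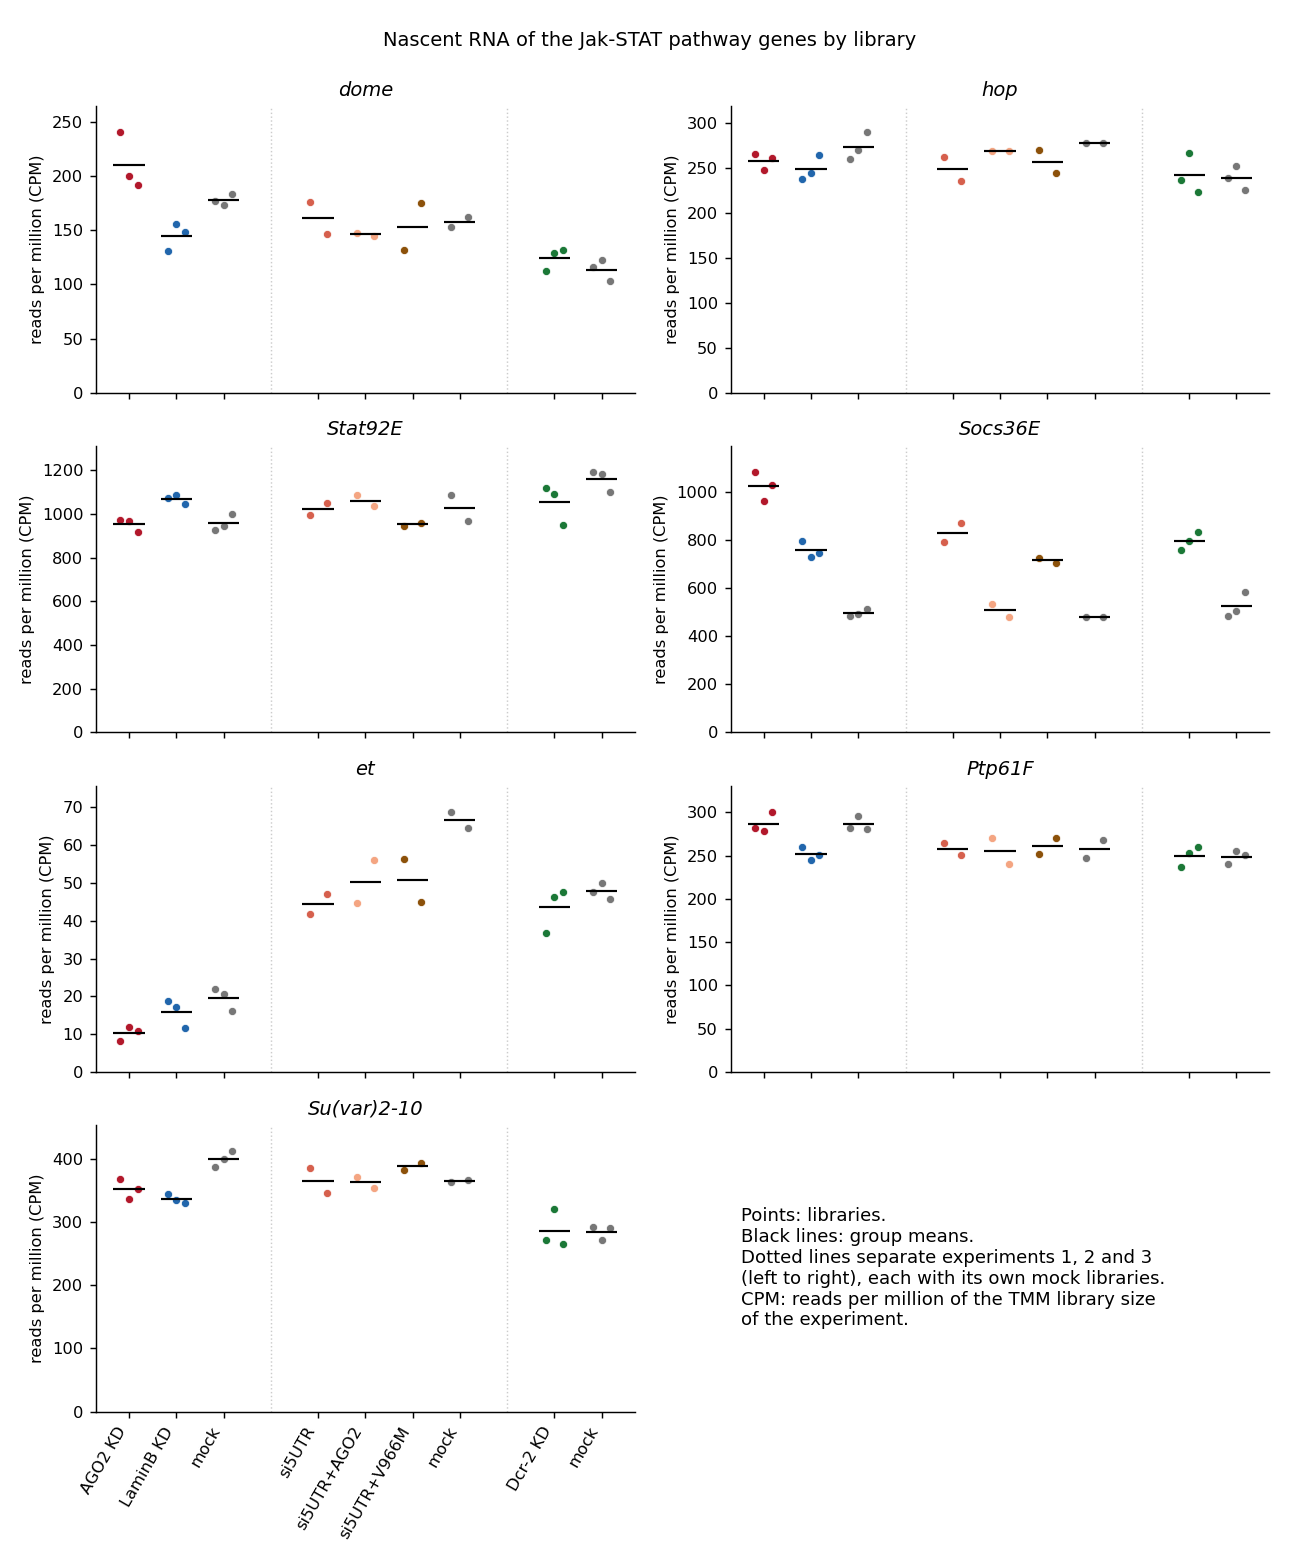
CPM of each member in all 23 libraries by group, with points for libraries, black lines for group means and dotted lines between experiments 1, 2 and 3. Socs36E is between 963 and 1082 CPM in AGO2 KD and between 478 and 583 CPM in all 8 mock libraries; et is several-fold lower in experiment 1 than in the other experiments.

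The gene dome (FBgn0043903, X:19676061-19683518, minus strand) encodes the receptor through which cells respond to the cytokines. Nascent dome RNA had 240.1, 199.6 and 191 CPM in AGO2 KD, 131, 156 and 149 CPM in LaminB KD, and 177, 174 and 183 CPM in mock. AGO2 KD libraries were all above mock and LaminB KD libraries all below it. dome fell in LaminB KD (log2 fold change -0.30, SE 0.0931, adjusted p = 0.0328 by edgeR's quasi-likelihood test), a call lost when LaminB KD 1 was left out (-0.23). In AGO2 KD the value was 0.24 (SE 0.0921) and missed the threshold of 0.1 with an adjusted p of 0.143; DESeq2 gave 0.0812. The knockdowns differed from each other: LaminB KD was lower than AGO2 KD by -0.54 (adjusted p = 0.00113). In experiment 2, dome was at 132 to 176 CPM in the 3 siRNA groups, against 153 and 162 CPM in mock, and in experiment 3 at 112 to 132 CPM in Dcr-2 KD, against 103 to 122 CPM in mock. Both si5UTR+AGO2 libraries lay below mock, the other groups overlapped with it, and no test passed. The LaminB KD effect on dome was below the Dcr-2 KD effect by -0.43 (SE 0.137, adjusted p = 0.0566), a call lost without LaminB KD 1, Dcr-2 KD 2 or mock 1, 3 or 12.

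The gene et (FBgn0031055, X:19672312-19675891, minus strand) encodes a short relative of Domeless that dampens signalling. It is the downstream neighbour of dome on the X chromosome, on the same strand, 169 bp from the end of dome. Its nascent RNA had 8.19, 11.9 and 10.8 CPM in AGO2 KD, 18.8, 17.3 and 11.7 CPM in LaminB KD, and 21.9, 20.7 and 16.0 CPM in mock. It was the least covered member, with 70 reads in its shallowest library. Every AGO2 KD library lay below every mock library, whereas LaminB KD overlapped mock. et fell in AGO2 KD by a log2 value of -0.92 (SE 0.222, adjusted p = 0.0161 by edgeR's quasi-likelihood test), a call kept with each library of the comparison left out. In LaminB KD it was -0.30 (adjusted p = 0.366). LaminB KD exceeded AGO2 KD by 0.62 with an adjusted p of 0.0786, which passed in 1 of 6 fits with 1 library left out, that without LaminB KD 3.

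In experiment 2, et had 41.8 and 47.1 CPM in si5UTR, 44.8 and 55.9 CPM in si5UTR+AGO2, 56.3 and 45.0 CPM in si5UTR+V966M, and 68.8 and 64.5 CPM in mock. All 6 libraries with siRNA were below both mock libraries, and the same held for hop. Of all genes, 40.3% in si5UTR, 34.4% in si5UTR+AGO2 and 38.1% in si5UTR+V966M did not overlap with mock in either direction. For et no difference passed the test: the log2 fold changes against mock were -0.58, -0.40 and -0.40, with adjusted p = 0.304, 0.979 and 0.559. In Dcr-2 KD, et had 36.8, 46.3 and 47.5 CPM, against 47.7, 50.0 and 45.7 CPM in mock, a change of -0.14 with a 95% interval that includes 0. The AGO2 KD effect was lower than the Dcr-2 KD effect by -0.78 (SE 0.238, adjusted p = 0.0861), a call lost in 9 of 12 fits that left out 1 library, all but those without AGO2 KD 2, mock 3 or Dcr-2 KD 1.

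The Janus kinase gene hop (FBgn0004864, X:11360930-11368098, minus strand) showed no called change. It had 266, 248 and 261 CPM in AGO2 KD, 237, 244 and 264 CPM in LaminB KD, and 259.6, 270.5 and 289 CPM in mock. In experiment 2 it had 262 and 236 CPM in si5UTR and 269 and 268 CPM in si5UTR+AGO2. There it had 270 and 244 CPM in si5UTR+V966M, and 278 and 277 CPM in mock, above all libraries with siRNA. Over all 23 libraries it stayed between 224 and 289 CPM, and no comparison passed the test; with length and GC content corrected, it passed in LaminB KD (-0.19, adjusted p = 0.0576). Its largest change against mock, in si5UTR, was a log2 value of -0.16 (SE 0.111).

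The transcription factor gene Stat92E (FBgn0016917, 3R:20535323-20552311, minus strand) is itself known as a target of the pathway in some tissues. It had 975, 970.3 and 919 CPM in AGO2 KD, 1076, 1089 and 1048 CPM in LaminB KD, and 927, 947 and 999.6 CPM in mock. AGO2 KD overlapped mock, with a log2 difference of -0.00473 (SE 0.0484), while all LaminB KD libraries were higher than both. The AGO2 KD value is without correction for gene length and GC content, and its corrected value is not given. Stat92E rose in LaminB KD by 0.16 (SE 0.0484, adjusted p = 0.0263 by edgeR's quasi-likelihood test). With gene length and GC content corrected the value was -0.08 (adjusted p = 0.277), so its direction depended on that correction, and the call was lost without mock 1 (0.13) or mock 2 (0.14). In experiment 2, Stat92E had 998 and 1051 CPM in si5UTR, 1089 and 1036 CPM in si5UTR+AGO2, 947 and 961 CPM in si5UTR+V966M, and 1088 and 968 CPM in mock. Both mutant-construct libraries lay below mock, and no comparison there passed. In Dcr-2 KD, Stat92E had 1119.6, 1092 and 951 CPM, against 1193, 1185 and 1101 CPM in mock, and the difference did not pass. The LaminB KD effect exceeded the Dcr-2 KD effect by 0.29 (SE 0.0961, adjusted p = 0.0604), a call lost without LaminB KD 2 or mock 1, 2, 10 or 11.

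The tyrosine phosphatase encoded by Ptp61F (FBgn0267487, 3L:1342493-1475257, minus strand) acts on Hopscotch and Stat92E. Nascent Ptp61F RNA had 282, 279 and 301 CPM in AGO2 KD, 259.6, 244 and 250.2 CPM in LaminB KD, and 282, 296 and 280.4 CPM in mock. LaminB KD libraries lay below all others of the experiment. The change in LaminB KD was -0.19 (SE 0.0641, adjusted p = 0.0483 by edgeR's quasi-likelihood test), and -0.66 with length and GC content corrected; the call was lost without LaminB KD 2 or mock 2 (-0.17 each). Over all libraries it stayed between 237 and 301 CPM. In the other comparisons with mock its log2 values stayed between -0.02 and 0.02 with all libraries and without that correction. Its corrected values there are not given, so that lack of change is shown only without the correction. For LaminB KD against AGO2 KD its log2 value was -0.19, and -0.42 to -0.19 over 7 other settings.

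Su(var)2-10 (FBgn0003612, 2R:9116122-9122000, plus strand) encodes the fly PIAS protein, a SUMO ligase that restrains Stat92E and has other roles in chromatin. It had 368, 336 and 353 CPM in AGO2 KD, 345, 335 and 329.6 CPM in LaminB KD, and 387, 399 and 412 CPM in mock. Both knockdowns lay wholly below mock. The log2 fold change was -0.25 in LaminB KD (SE 0.0600, adjusted p = 0.00814 by edgeR's quasi-likelihood test), a call kept with each library left out. In AGO2 KD it was -0.18 (SE 0.0598, adjusted p = 0.0831), a call lost in 5 of 6 such fits, all but the one without AGO2 KD 1, and in 5 of 7 other settings (adjusted p of 0.0465 to 0.317 over all of them). It was at 346 to 394 CPM in the siRNA groups of experiment 2, against 364 and 367 CPM in mock, and at 265 to 321 CPM in Dcr-2 KD, against 272 to 292 CPM in mock. There it did not pass, with log2 values of at most 0.09 in size.

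Counted together, 3 of the 7 members were called in AGO2 KD against mock at an adjusted p under 0.1 (1 higher, 2 lower), beside 10.2% of all genes tested. In LaminB KD against mock 5 were called (2 higher, 3 lower), beside 29.2% of all genes. Between LaminB KD and AGO2 KD 5 were called (2 higher, 3 lower), beside 20.3%. Socs36E was the 1 member called in each of 5 further comparisons. It was higher in si5UTR than in mock (beside 1.23% of all genes called and 0.882% called higher), in si5UTR+V966M than in mock (0.63% and 0.286%), in si5UTR+V966M than in si5UTR+AGO2 (0.16% and 0.0802%) and in Dcr-2 KD than in mock (2.02% and 1.38%). It was lower in si5UTR+AGO2 than in si5UTR (0.63% called and 0.527% lower). In si5UTR+AGO2 against mock edgeR called 0 members, with 0 at an unadjusted p under 0.05 and 0 by DESeq2, beside 0.149% of all genes. In si5UTR+V966M against si5UTR edgeR and DESeq2 called 0, with 1 (Socs36E) at an unadjusted p under 0.05, beside 0.264%. Of the interaction contrasts, AGO2 KD against si5UTR called 0 of the 7 (0 by DESeq2, 1 at an unadjusted p under 0.05, beside 0.103% of genes), AGO2 KD against Dcr-2 KD 2 (beside 5.27%, with 4.04% higher and 1.24% lower) and LaminB KD against Dcr-2 KD 2 (beside 13.5%, with 8.51% higher and 5.01% lower). Libraries of the groups compared did not overlap for 4 members in AGO2 KD against mock (28.6% of genes), 5 in LaminB KD against mock (37.2%), 4 in LaminB KD against AGO2 KD (31.5%) and 1 in Dcr-2 KD against mock (19.2%). With 2 libraries a group, they did not overlap for 3 members in si5UTR against mock (40.3%), 4 in si5UTR+AGO2 against mock (34.4%), 5 in si5UTR+V966M against mock (38.1%), 2 in si5UTR+AGO2 against si5UTR (36.5%), 2 in si5UTR+V966M against si5UTR (37.7%) and 3 in si5UTR+V966M against si5UTR+AGO2 (35.4%). The groups of experiment 2 share 2 mock libraries, so their comparisons with mock are not independent.

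**Figure D3:**
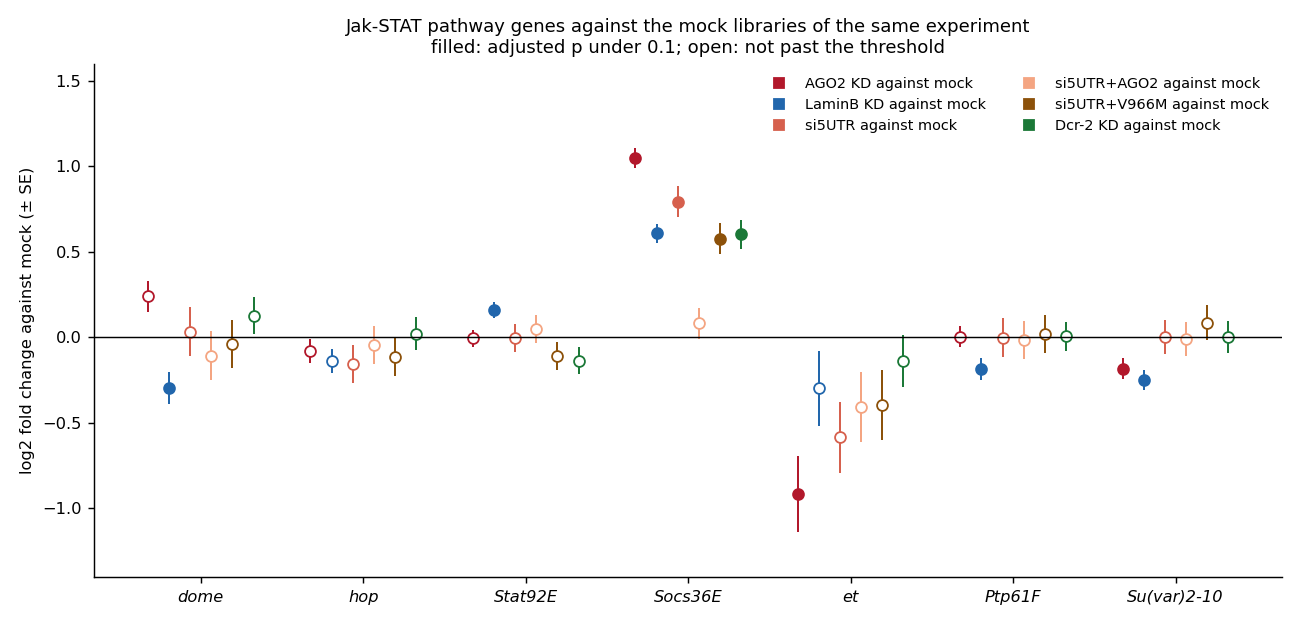
Log2 fold change against the mock libraries of the same experiment for each member (points with SE bars, coloured by group); filled points passed an adjusted p of 0.1. Socs36E is at 0.58 to 1.05 in all groups but si5UTR+AGO2, where it is at 0.08, and et is below 0 in all 6 groups, with only AGO2 KD past the threshold.

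Among the ligand genes, upd3 rose in the same groups as Socs36E, and upd2 rose in AGO2 KD. Of 25 further pathway genes (3 ligands, 5 inhibitors and repressors, 9 partners and cofactors and 8 known targets), 21 were tested. The cytokine gene upd3, known from activated haemocytes, had 132, 154 and 157 CPM in AGO2 KD, 69.1, 55.8 and 74.8 CPM in LaminB KD, and 53.1, 49.4 and 51.4 CPM in mock. All libraries of both knockdowns lay above mock, and those of AGO2 KD above those of LaminB KD. The log2 fold change of upd3 was 1.52 in AGO2 KD (SE 0.110, adjusted p = 4.42e-07 by edgeR's quasi-likelihood test) and 0.38 in LaminB KD (SE 0.112, adjusted p = 0.0252), a LaminB KD call lost without LaminB KD 3 (0.28) or mock 2 (0.34). In Dcr-2 KD, upd3 had 297, 334 and 322 CPM, against 155, 164 and 174 CPM in mock, a change of 0.95 (SE 0.0915, adjusted p = 0.000104).

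In experiment 2, upd3 had 178 and 217 CPM in si5UTR, 97.6 and 129 CPM in si5UTR+AGO2, 234 and 147 CPM in si5UTR+V966M, and 114 CPM in both mock libraries. As with Socs36E, the si5UTR and mutant-construct libraries were above mock and those with wild-type AGO2 were around it. Against mock the log2 value of upd3 was 0.79 in si5UTR (adjusted p = 0.0250 by edgeR's quasi-likelihood test), -0.01 in si5UTR+AGO2 and 0.74 in si5UTR+V966M (adjusted p = 0.0571). Unlike that of Socs36E, the si5UTR+V966M call of upd3 was not followed under other settings. upd3 was lower in si5UTR+AGO2 than in si5UTR by -0.80 (adjusted p = 0.0362). The mutant-construct libraries differed widely from each other, and si5UTR+V966M against si5UTR+AGO2 gave 0.75 with an adjusted p of 0.113; it passed without si5UTR+AGO2 2 (0.97) or si5UTR+V966M 3 (1.05).

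The related ligand gene upd2 was scarcer, with 8.77, 10.8 and 13.9 CPM in AGO2 KD, 2.69, 2.66 and 2.80 CPM in LaminB KD, and 4.0, 2.64 and 3.87 CPM in mock. It rose in AGO2 KD by a log2 value of 1.67 (SE 0.309, adjusted p = 0.00217 by edgeR's quasi-likelihood test). In Dcr-2 KD, upd2 had 17.3, 27.6 and 20.02 CPM, against 7.86, 11.3 and 12.6 CPM in mock. That difference of 1.04 had an adjusted p of 0.101 and did not pass. In experiment 2, upd2 had 9.37 and 17.3 CPM in si5UTR and 3.75 and 8.16 CPM in si5UTR+AGO2. It had 7.65 and 10.3 CPM in si5UTR+V966M, and 5.64 and 5.75 CPM in mock. No comparison there passed. In edgeR the unadjusted p was under 0.05 in si5UTR against mock and in si5UTR+AGO2 against si5UTR. The third ligand gene, upd1, stayed at or below 1.08 CPM in all libraries and was not tested.

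Of 8 genes known as targets 5 were tested; 3 rose in AGO2 KD, 2 rose in LaminB KD and 0 fell in either. Of all genes, 7.92% rose and 2.32% fell in AGO2 KD, and 16.7% rose and 12.5% fell in LaminB KD. vir-1, a gene known to be induced by virus through this pathway, had 18.6, 23.5 and 22.2 CPM in AGO2 KD, 10.2, 8.11 and 6.28 CPM in LaminB KD, and 5.28, 3.80 and 4.18 CPM in mock. It rose by a log2 value of 2.27 in AGO2 KD (SE 0.242, adjusted p = 1.37e-05 by edgeR's quasi-likelihood test) and by 0.88 in LaminB KD (adjusted p = 0.0195; 0.60 and an adjusted p of 0.123 with length and GC content corrected). In Dcr-2 KD, vir-1 had 37.6, 51.9 and 47.8 CPM, against 34.2, 35.8 and 51.8 CPM in mock, and did not pass. The mock level of vir-1 itself differed widely between experiments, with 2.16 and 2.91 CPM in experiment 2. vir-1 was not called in experiment 2, where si5UTR against mock had an unadjusted p under 0.05 in edgeR. The transcriptional repressor genes chinmo and zfh1, targets in testis stem cells, rose in AGO2 KD by 0.20 and 0.14 (adjusted p = 0.0139 and 0.0173). Tep2, a thioester protein gene of the immune response, rose in LaminB KD by 0.32 (adjusted p = 0.00905). Of the target genes not tested, TotA, TotM and Tep1 stayed below 1 CPM in all libraries.

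The 25 genes were chosen with earlier results of these data known, so their counts describe the list and do not test it. Over the 25 genes, 5 were called higher and 0 lower in AGO2 KD, beside 7.92% and 2.32% of all genes. The median log2 value there was 0.11 over the 21 tested and 0.00 over all genes. In LaminB KD 3 were called higher and 1 lower, beside 16.7% and 12.5%. The 1 that fell was lwr, the SUMO-conjugating enzyme gene, by -0.49 (adjusted p = 0.00185). Between LaminB KD and AGO2 KD, 8 of the 21 were lower and 0 higher, among them upd2, upd3, vir-1, chinmo and zfh1, beside 10.1% of all genes called lower and 10.2% called higher. In si5UTR, si5UTR+V966M and Dcr-2 KD, each against mock, 1 was called higher, and in each it was upd3. Of all genes, 0.882%, 0.286% and 1.38% were called higher there. In si5UTR+AGO2 against mock edgeR called 0 of the 21, with 0 at an unadjusted p under 0.05, beside 0.149% of all genes called. The rise of upd3 was larger in AGO2 KD than in Dcr-2 KD by 0.57 (adjusted p = 0.0207) and smaller in LaminB KD than in Dcr-2 KD by -0.58 (adjusted p = 0.0154). The rise of vir-1 was larger in AGO2 KD than in Dcr-2 KD by 2.08 (adjusted p = 0.00107).

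**Figure D4:**
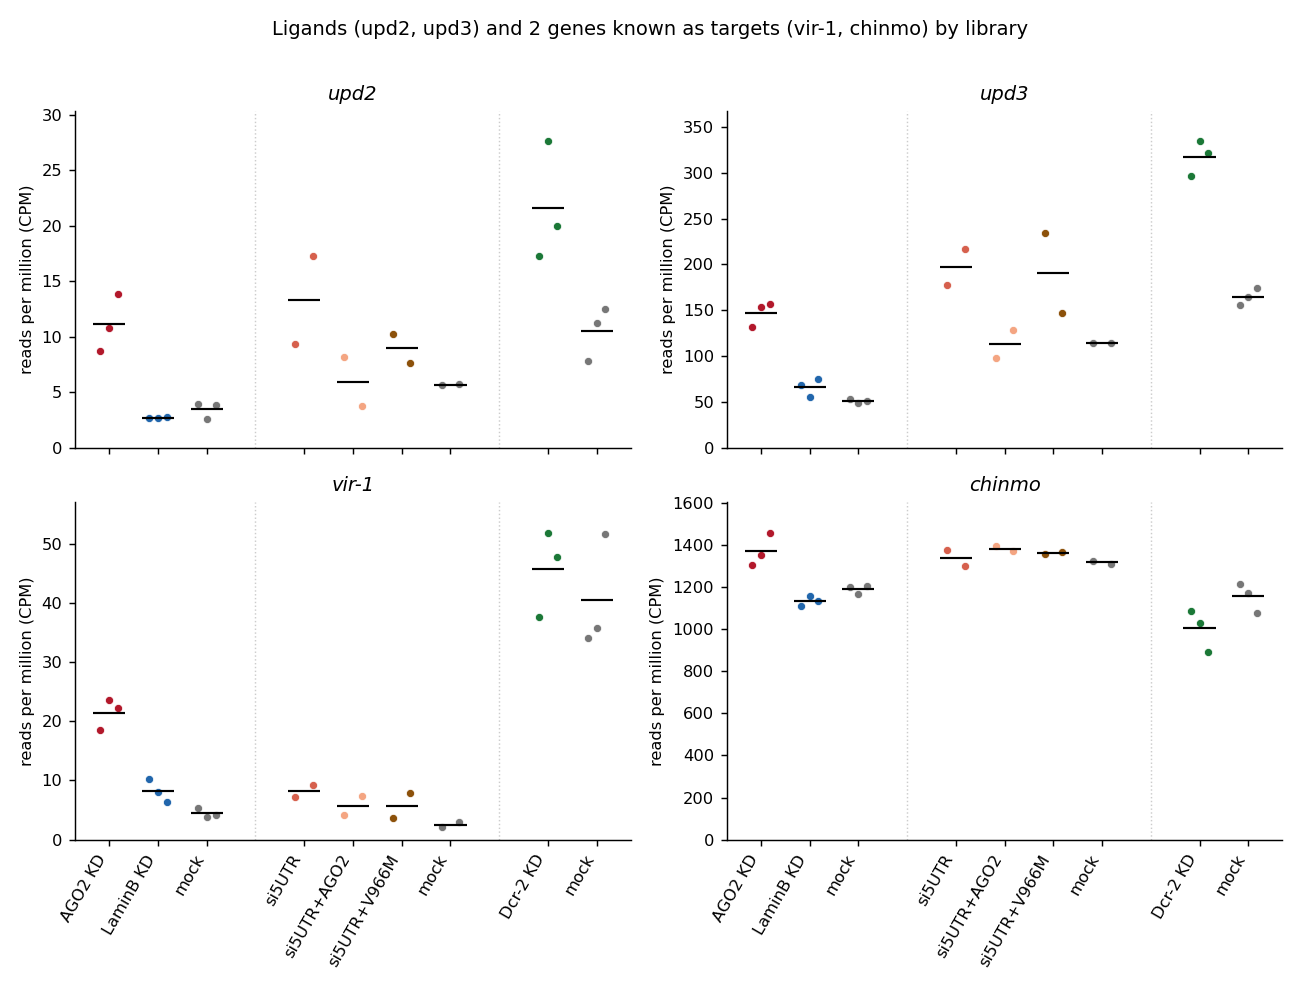
CPM of the ligand genes upd2 and upd3 and of vir-1 and chinmo in all 23 libraries by group, with points for libraries, black lines for group means and dotted lines between experiments. In experiment 1, upd3 is at 132 to 157 CPM for AGO2 KD, against 49.4 to 53.1 CPM for mock; in experiment 2 at 178 and 217 CPM for si5UTR, against 114 CPM for mock, and in experiment 3 at 297 to 334 CPM for Dcr-2 KD, against 155 to 174 CPM for mock.

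Across the 23 libraries, each centred on its experiment's mean, the members did not vary as a block. The pair with the strongest relation to Socs36E was et, with a Pearson r of -0.73, followed by hop at -0.43. Stat92E and Ptp61F had an r of -0.63, and dome and Ptp61F 0.61. Among 6717 genes of at least 5 CPM on average, those most like Socs36E were cv-2 (r = 0.942), asRNA:CR46089 (0.940) and Fhos (0.939). Those most like Stat92E were CG8671 (0.882), par-1 (0.859) and toc (0.852). The gene most like dome was Su(dx) (0.764), most like et CG10702 (0.747), most like hop rnh1 (0.768), most like Ptp61F ppan (0.847) and most like Su(var)2-10 CG16896 (0.785). These values describe the 23 libraries, whose points share treatments, mock libraries and depth.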

How the data were processed

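neuRNA-seq reads of 23 Kc167 libraries had been trimmed, mapped to dm6 and counted by strand over whole gene bodies before deposit; the submitters' processing notes name cutadapt 1.10, HISAT2 2.0.4 and featureCounts 1.5.0-p3. What the authors deposited are whole-number read counts for each gene, without scaling or a filter. Groups came from the sample labels, experiments from the deposited lookup table. Without molecular identifiers, PCR copies counted as reads. Of 17659 genes, 17464 matched a symbol and coordinates in Ensembl's dm6 annotation, a later one than was used for counting.

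Each experiment was fitted alone in edgeR 4.0.16 (R 4.3.3; TMM, filterByExpr, treatment only), which left 8142, 8727 and 7733 genes, with the quasi-likelihood F test and Benjamini-Hochberg adjusted p under 0.1; the study itself used DESeq2, here an alternative (version 1.42.0). Filter, normalisation, threshold, samples fitted, length and GC correction, replicate block and left-out libraries were varied. Effects of 2 experiments were compared by an interaction contrast. Intervals are 95%, from the quasi-likelihood SE and its degrees of freedom. Likeness is Pearson's r of log2(CPM + 1). Precision rests on read counts and on the spread between replicates. A count of 3 reads was 0.192 to 0.575 CPM.

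The members, targeted genes, pathway lists and most-like genes are the named genes; members and lists were chosen with earlier results of these data known. No 2 replicates agreed within sampling noise (chi-square per degree of freedom of at least 6.95 over 19 pairs). One gene of the wider pathway is not reported here.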

Additional observations from a re-analysis of the deposited data

Results flagged for a closer look

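One of the 8 mock libraries stood apart from the other 7 in Socs36E: mock 12 of experiment 3 had 583 CPM and the next highest 511 CPM, a gap of 0.689 of the range. The limit used is smaller than this gap, and 10 genes were looked at. By chance about 1 in 20 groups would pass that limit if the 8 values came from 1 set. These libraries come from 3 experiments, each normalised on its own, so that rate may not hold here. Without mock 12, Socs36E in Dcr-2 KD against mock had a log2 fold change of 0.68.

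Several effects differed between knockdowns of different experiments by the interaction contrast in edgeR. For AGO2 KD against Dcr-2 KD, the difference was 0.44 for Socs36E, -0.78 for et, 0.57 for upd3, 0.40 for chinmo (adjusted p = 0.0534) and 2.08 for vir-1. For LaminB KD against Dcr-2 KD, it was -0.43 for dome, 0.29 for Stat92E, -1.41 for upd2 (adjusted p = 0.0573), -0.58 for upd3, -0.44 for lwr (adjusted p = 0.0704) and 0.34 for Tep2 (adjusted p = 0.0835). Treatment and experiment cannot be told apart in these contrasts beyond what each set of mock libraries removes.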

How the results depend on the processing

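Socs36E kept its call against mock in AGO2 KD, LaminB KD, si5UTR, si5UTR+V966M and Dcr-2 KD under every alternative run. The number of members called changed as follows. In AGO2 KD against mock it was 5 with length and GC correction, which includes members not called in the fit reported. Their corrected values are not given, and their lack of a call does not extend to that setting. The number was 4 with DESeq2, 3 without the filter, and 2 with RLE size factors, at an adjusted p under 0.05 or with only these groups. With 1 library left out it was 2 to 3. In LaminB KD against mock it was 3 to 5 with 1 library left out, 3 being without mock 2. In LaminB KD against AGO2 KD it was 3 at an adjusted p under 0.05 and 2 to 4 with 1 library left out, 2 being without AGO2 KD 3 or LaminB KD 2. In si5UTR+V966M against si5UTR+AGO2 it was 0 when only these groups were fitted. In the AGO2 KD and Dcr-2 KD contrast it was 1 at 0.05 and 1 to 2 with 1 library left out, and in the LaminB KD and Dcr-2 KD contrast 0 at 0.05 and 0 to 3, 0 being without mock 1. Signs turned for Stat92E in LaminB KD (-0.0778 with length and GC correction), for upd3 in si5UTR+V966M against si5UTR (0.0212 with that correction, -0.41 to 0.24 with 1 library left out), and for Socs36E in LaminB KD against Dcr-2 KD (-0.00363 without the filter, -0.0816 to 0.0498 with 1 library left out), of which only Stat92E had been called. The causes were not tested.

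With the replicate number as a block, 2 members were called in AGO2 KD, 5 in LaminB KD against mock and 5 against AGO2 KD; the lost call was Su(var)2-10. Lookup-table numbers as a block, an alternative chosen after seeing the data, changed no member's call in experiments 2 and 3. Same-numbered libraries did not deviate together (20 pairs, r of -0.13 to 0.07). With so few libraries a group, their deviations from the group mean are tied to each other. The check therefore cannot decide whether equal numbers mark libraries prepared together.

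Over all genes, AGO2 KD gave 645 higher and 189 lower (77.3% higher), and 466 and 267 (63.6%) with length and GC correction. With 1 library left out, the calls that set the background shares spanned 502 (without AGO2 KD 3) to 1008 in AGO2 KD, 1785 to 2403 in LaminB KD, 960 (without AGO2 KD 2) to 1607 in LaminB KD against AGO2 KD, 78 to 218 (without mock 7) in si5UTR, 19 to 82 (without si5UTR+AGO2 1) in si5UTR+AGO2, 47 to 333 (without si5UTR+V966M 3) in si5UTR+V966M and 18 (without mock 10) to 236 in Dcr-2 KD, each against mock where no other group is named. They spanned 55 to 124 in si5UTR+AGO2 against si5UTR, 32 to 143 in si5UTR+V966M against si5UTR, 16 to 304 in si5UTR+V966M against si5UTR+AGO2, and 0 to 119, 180 to 517 and 729 to 1223 in the contrasts of AGO2 KD with si5UTR, AGO2 KD with Dcr-2 KD and LaminB KD with Dcr-2 KD. si5UTR gave 107 calls, 219 without the filter and 200 with DESeq2. si5UTR+AGO2 gave 13, and 43, 43, 6, 8 and 28 without the filter, with DESeq2, with only these groups, with length and GC correction and with the block. si5UTR+V966M gave 55, and 163, 145, 7 and 96 without the filter, with DESeq2, with only these groups and with the block. Dcr-2 KD gave 156, and 374, 314 and 281 without the filter, with DESeq2 and with the block; its share of higher calls was 68.6%, and 53.7%, 50.6% and 53.0% under those. In the same order (as reported, without the filter, with DESeq2), si5UTR+AGO2 against si5UTR gave 55, 119 and 86, si5UTR+V966M against si5UTR 23, 71 and 116, si5UTR+V966M against si5UTR+AGO2 14, 87 and 78, the contrast of AGO2 KD with si5UTR 9, 300 and 132, and that of AGO2 KD with Dcr-2 KD 435, 596 and 687. The share of higher calls was 72.0% in si5UTR (61.2% without the filter, 44.5% without mock 7 to 84.6% without mock 8) and 45.5% in si5UTR+V966M (60.5% with length and GC correction, 33.8% with DESeq2, 33.6% without mock 7 to 72.3% without mock 8). Depth limited et most, with at least 70 reads per library.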
